A study of Mus musculus with 6 samples.

Results

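The genes described here are 37 enzymes that make, salvage or interconvert purine and pyrimidine nucleotides, taken from the read-count table by gene symbol. All 37 were found among its 22401 rows, 33 of them under the listed symbol and 4 under a newer one (Adss2 for Adss, Adss1 for Adssl1, Ctps1 for Ctps and Hprt1 for Hprt). The libraries came from 4T1, a mouse mammary carcinoma line that the labels describe as epithelial, grown in serum-containing DMEM. The cells received the solvent DMSO or 10 µM P3FI-90, a compound the study describes as an inhibitor of the histone H3 lysine 9 demethylase KDM3B, and RNA was taken after 24 h, with 3 libraries per group. No genotype differed between the groups, and a single line, dose and time were sampled. The labels do not say that the 3 libraries of a group came from separate cultures, so the p-values measure the spread between these libraries, which may be technical.

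Cells build purine rings stepwise on phosphoribosyl pyrophosphate (PRPP), made from ribose phosphate of the pentose phosphate pathway, to reach inosine monophosphate (IMP), which is then turned into AMP or GMP. Pyrimidines are made as a free ring that is afterwards joined to PRPP, giving UMP and, through CTP synthase, CTP. Salvage enzymes recover bases and nucleosides instead, and kinases and deoxynucleotide enzymes supply the triphosphates used for RNA and DNA. Proliferating tumour cells are known to draw heavily on the de novo routes, and several of the enzymes are targets of antiproliferative drugs.

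The named genes summed to between 31327094 and 37395732 counts per library. Of the 5 epithelial markers fixed for the check of the cell type (Epcam, Krt8, Krt18, Krt19 and Cdh1), 5 were measured well enough to be tested, with summed levels of 2843 to 2986 CPM (counts scaled to the size of the library) in DMSO and 1664 to 1741 CPM in P3FI-90. The 5 leukocyte markers stayed at 26 counts or fewer in every library, with summed levels of 0 to 1.20 CPM in DMSO and 0.276 to 0.862 CPM in P3FI-90. Of the 5 fibroblast and endothelial markers, 4 were at 32 counts or fewer. The exception was Pdgfra, which was clearly expressed, at 973 to 1349 counts per library. Summed levels of these 5 were 35.7 to 36.4 CPM in DMSO and 29.4 to 33.2 CPM in P3FI-90. The part of the lower epithelial marker level in the results below was not tested. In such bulk libraries, fewer cells of a kind and less RNA per cell cannot be told apart.

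In the P3FI-90 libraries most of the nucleotide synthesis genes were lower. Of the 37 genes, 30 fell and 4 rose at an adjusted p under 0.05 in edgeR's quasi-likelihood test with Benjamini-Hochberg adjustment, whereas 39.4% of all 12288 genes tested fell and 39.9% rose. The fallen genes made up 81.1% of the 37. The treatment moved 79.3% of all genes tested in one direction or the other, so a call by itself was common. All 37 genes passed the filter on low counts. The median log2 fold change (P3FI-90 over DMSO) of the 37 was −0.65, against 0.013 over all genes tested, and the individual values ran from −1.60 to 0.92. In 10 of the 37 the log2 fold change was below −1, where 10.6% of all genes tested were called. None of the 37 was called above 1, where 12.7% of all genes stood. In 30 genes all P3FI-90 libraries lay below all DMSO libraries and in 4 genes all lay above, compared with 40.2% and 41% of all genes. Together the 37 genes took 0.612% ± 0.0024 of named-gene counts in DMSO and 0.419% ± 0.0021 in P3FI-90 (SD, n = 3 each).

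Most of the genes are well expressed, so the same counts were taken over genes above a minimum level, which was chosen after the values were seen. This sets a floor only, and the levels of the 2 sets were not matched. Of the 6992 genes with a mean of at least 1000 normalised counts, 44.3% fell and 42.6% rose, and their median log2 fold change was −0.014. Among the 34 nucleotide synthesis genes above that level, 29 fell, 3 rose and the median was −0.70.

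**Figure D1:**
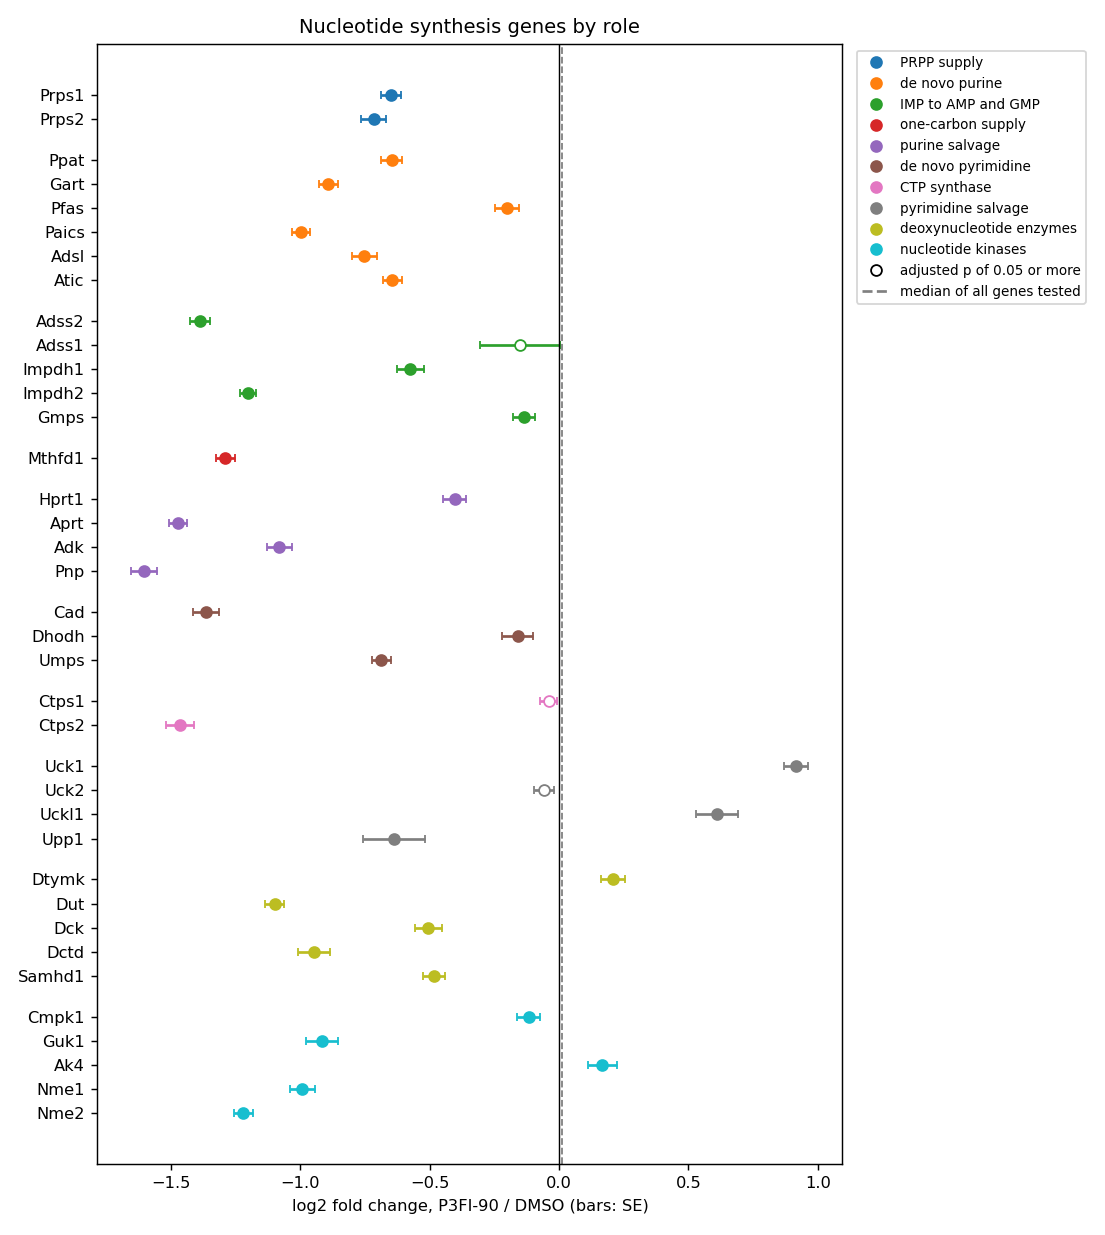
Log2 fold change of P3FI-90 over DMSO (x axis) for each of the 37 genes (y axis, grouped by role), with bars for the standard error, open points for genes that passed no threshold and a dashed line at the median of all genes tested. The 30 fallen genes reach −1.60 at Pnp, and the 4 risen genes, Uck1, Uckl1, Dtymk and Ak4, reach 0.92. Scaling by total counts instead of TMM would move every point to the right by about 0.21.

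RNA of the genes at the entry into purine synthesis was lower. Prps1 and Prps2, the PRPP synthetases, both fell. Prps1 (ENSMUSG00000031432) held 5170.1, 5017 and 4913 normalised counts in the DMSO libraries and 3181, 3291 and 3158 in the P3FI-90 libraries, where a normalised count is a count scaled by edgeR's TMM factors to a common library size. The groups did not overlap, and the gene fell by 36.2% (log2 fold change −0.65, SE 0.039, adjusted p = 1.43e-09 in edgeR's quasi-likelihood test). Prps2 (ENSMUSG00000025742) stood at 3821, 3820.2 and 3508 normalised counts in DMSO and at 2331, 2205 and 2247 in P3FI-90, again without overlap. Its fall was 39.2% (log2 fold change −0.72, SE 0.049, edgeR adjusted p = 6.67e-09). In the GENCODE M21 annotation, 10.1% of the 50-base windows of Prps1 also occur in other genes, among them Prps1l3, whose own row fell by 0.88 on the log2 scale.

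All 6 genes of the de novo route from PRPP to IMP fell, where 39.4% of all genes tested did. Ppat (ENSMUSG00000029246), the amidotransferase that commits PRPP to the pathway, had 4298, 4109 and 4249 normalised counts in DMSO and 2637, 2732 and 2714 in P3FI-90. Every P3FI-90 library was below every DMSO library, and the fall was 36.1% (log2 fold change −0.65, SE 0.041, edgeR adjusted p = 3.05e-09). Its genomic neighbour Paics, which carries the carboxylase and the succinocarboxamide synthetase steps, fell from 26479 ± 1183 to 13256 ± 97.4 normalised counts (SD, n = 3 each), a fall of 49.9%. Gart, a trifunctional enzyme of the same route, fell by 46.1% and Adsl, the lyase that acts both here and in AMP synthesis, by 40.6%. Atic, the bifunctional enzyme that closes the ring to IMP, fell by 36.1% from 14282 ± 391 to 9133 ± 315 normalised counts. Pfas, another amidotransferase of this route, fell by 13.1% (log2 fold change −0.20, SE 0.047, edgeR adjusted p = 0.00114), the smallest fall of the 6. With scaling by total counts its log2 fold change was 0.011 and passed no threshold.

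The windows around the starts of 3 of these genes are shown because Ppat and Paics start close together on opposite strands and fell together, and because Paics and Atic are the only 2 of the de novo purine genes in the promoter table that hold the canonical E-box CACGTG, the element bound by Myc with Max. Each runs 5′ to 3′ on the gene's strand from 250 bases before the start to 50 bases after it, as given by RefSeq for GRCm38.p6, with the E-box in capitals. Ppat lies at chr5:76951529-76951828 on the minus strand, Paics at chr5:76951052-76951351 on the plus strand and Atic at chr1:71556906-71557205 on the plus strand.
Ppat: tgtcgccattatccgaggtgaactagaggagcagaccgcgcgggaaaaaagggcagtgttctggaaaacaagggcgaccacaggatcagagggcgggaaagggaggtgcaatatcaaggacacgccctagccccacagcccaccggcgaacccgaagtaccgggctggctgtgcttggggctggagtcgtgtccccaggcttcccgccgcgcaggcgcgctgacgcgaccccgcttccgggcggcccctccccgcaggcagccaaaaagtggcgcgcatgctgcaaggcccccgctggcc
Paics: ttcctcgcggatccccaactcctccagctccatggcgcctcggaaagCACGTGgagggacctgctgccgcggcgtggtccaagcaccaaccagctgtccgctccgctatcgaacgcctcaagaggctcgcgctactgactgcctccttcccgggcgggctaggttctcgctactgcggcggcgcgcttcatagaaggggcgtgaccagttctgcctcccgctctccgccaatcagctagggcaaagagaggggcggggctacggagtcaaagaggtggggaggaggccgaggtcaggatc
Atic: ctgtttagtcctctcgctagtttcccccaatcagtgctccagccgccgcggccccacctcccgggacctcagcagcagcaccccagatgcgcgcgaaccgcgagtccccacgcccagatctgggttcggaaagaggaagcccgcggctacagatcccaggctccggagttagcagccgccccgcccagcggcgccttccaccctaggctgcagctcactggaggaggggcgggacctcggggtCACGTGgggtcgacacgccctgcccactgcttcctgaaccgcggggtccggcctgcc
The E-box begins at position −203 from the start in Paics and at position −7 in Atic, and none was found in the Ppat window. On the transcripts of GENCODE M21, exons of Ppat and Paics overlap on opposite strands, over 6.15% of the exon length of Ppat and 8.67% of that of Paics. Whether the counting used strand is not given in the sources used here, and reads from the overlap cannot be told apart without it.

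Across all 37 genes, 35 had an entry in the RefSeq promoter table, and Pfas and Dhodh had none. CACGTG, read on both strands, occurred in 6 of the 35 (17.1%), against 8.09% of the 27025 genes in the table. The 6 were Paics, Atic, Impdh2, Dtymk, Ak4 and Nme1. Of these 6 genes, 4 fell, and Dtymk and Ak4 rose. The element TGATGNAA, which Atf4 binds together with C/EBP proteins, was present in 1 of the 35 (2.86%), Prps1, against 4.51% of all genes, and no window of the 35 held both elements. A gene was counted if any of its windows held the element. Some genes have several windows, as Ak4 does, and the number of windows per gene was not matched between the 35 and all genes. Such matches describe the letters in these windows and are not measured binding.

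From IMP onward, RNA was lower for 4 of the 5 genes of the branches to AMP and GMP (80%, against 39.4% of all genes tested). Adss2 (ENSMUSG00000015961), the adenylosuccinate synthase found in most tissues, showed 9823, 10439 and 9749.7 normalised counts in DMSO and 3940.3, 3782 and 3757 in P3FI-90. Its groups lay far apart, and it fell by 61.8% (log2 fold change −1.39, SE 0.039, edgeR adjusted p = 6.07e-13). Its muscle-type paralog Adss1 (ENSMUSG00000011148) was at 204, 220.4 and 195 normalised counts in DMSO and 167, 175 and 216 in P3FI-90. Those groups overlapped, and Adss1 passed no threshold (log2 fold change −0.15, SE 0.15, edgeR adjusted p = 0.374).

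On the GMP side, IMP dehydrogenase is the rate-limiting step. Impdh2 (ENSMUSG00000062867), the isoform known to predominate in proliferating cells, had 16132, 15854 and 15641 normalised counts in DMSO against 6948, 6962 and 6785 in P3FI-90. No library of one group reached the other, and the fall was 56.5% (log2 fold change −1.20, SE 0.032, edgeR adjusted p = 3.43e-13). Impdh1 (ENSMUSG00000003500) held 2179, 2046 and 2202 normalised counts in DMSO and 1428, 1480.0 and 1408 in P3FI-90, a fall of 32.9% (log2 fold change −0.57, SE 0.051, edgeR adjusted p = 1.19e-07). Both isoforms therefore fell, each without overlap of the groups. Gmps, which aminates XMP to GMP, fell by 8.95%, from 6420 ± 366 to 5845 ± 101 normalised counts (log2 fold change −0.13, edgeR adjusted p = 0.00903), and its log2 fold change turned to 0.079 with scaling by total counts. In GENCODE M21, 73.9% of the 50-base windows of Impdh2 also occur in other genes, in particular the pseudogene Impdh2-ps. No row bore the symbol Impdh2-ps. What became of reads that match both depends on how the authors counted them, which is not given in the sources used here.

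Mthfd1, which supplies the folate-bound formyl groups used by Gart and Atic, fell by 59.1%, from 7017 ± 196 to 2869 ± 62.5 normalised counts (log2 fold change −1.29, SE 0.037, edgeR adjusted p = 8.21e-13).

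The 4 purine salvage genes all fell, where 39.4% of all genes tested did. Their median log2 fold change was −1.28, beside −0.70 in the 6 de novo purine genes and −0.69 in the 3 de novo pyrimidine genes. Pnp (ENSMUSG00000115338), the phosphorylase that splits inosine and guanosine, had the largest fall of the 37 genes. It stood at 3652, 3734 and 3882 normalised counts in DMSO and at 1245, 1196 and 1268 in P3FI-90, which is a fall of 67.1% (log2 fold change −1.60, SE 0.050, edgeR adjusted p = 1.78e-12). The groups were far from overlapping. Aprt (ENSMUSG00000006589), which returns adenine to AMP, followed with 11798, 11633 and 11386 normalised counts in DMSO and 4063, 4247 and 4243 in P3FI-90. It fell by 63.9% (log2 fold change −1.47, SE 0.035, edgeR adjusted p = 1.3e-13), with all P3FI-90 libraries below all DMSO libraries. Adk, which phosphorylates adenosine, fell by 52.7%, from 3606 ± 36.7 to 1704 ± 78.4 normalised counts. Hprt1, which returns hypoxanthine and guanine to IMP and GMP, fell least of the 4, by 24.4% (log2 fold change −0.40, SE 0.044, edgeR adjusted p = 1.07e-06). Of the 50-base windows of Pnp, 28.7% also occur in other genes of GENCODE M21, chiefly Gm49342 and Pnp2. Gm49342 had a row at 0 counts in every library, and Pnp2 had 140.4 ± 72.5 normalised counts in DMSO and 51.7 ± 28.6 in P3FI-90 and also fell (log2 fold change −1.42, SE 0.39, edgeR adjusted p = 0.00407).

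**Figure D2:**
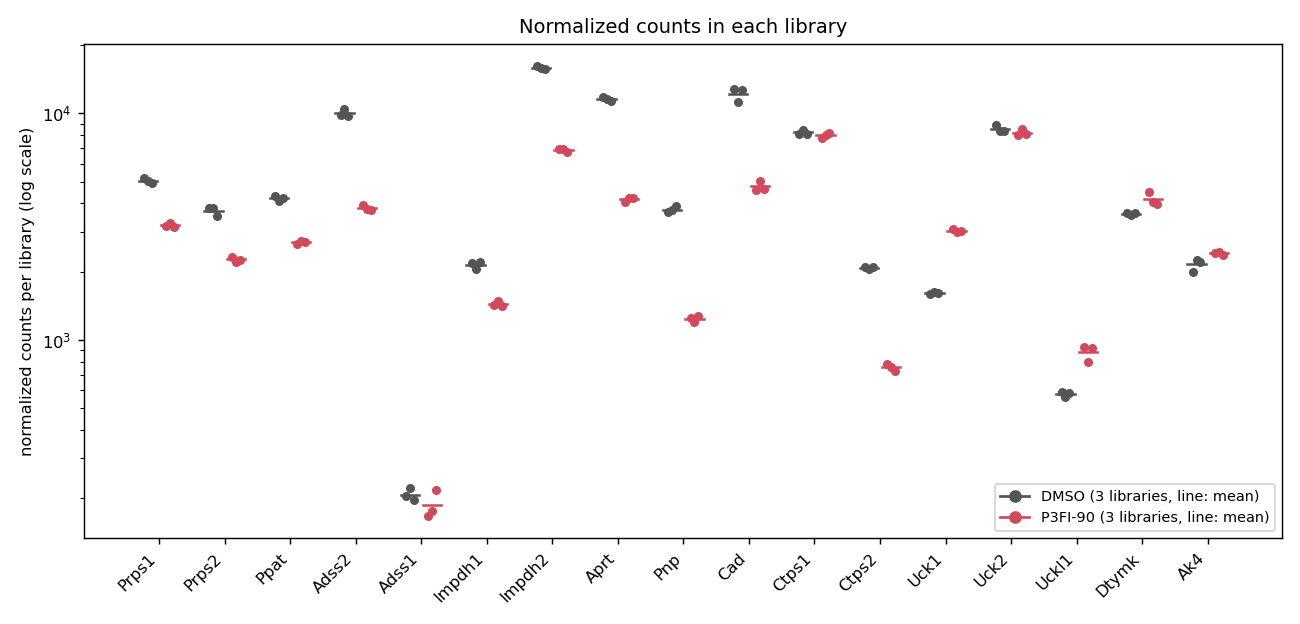
Normalised counts in each library (log axis) of the genes whose values are given library by library, with DMSO and P3FI-90 side by side, 1 point per library and a line at the group mean. The P3FI-90 points of Pnp, Aprt, Adss2, Cad, Ctps2 and Impdh2 lie well below their DMSO points, those of Uck1 and Uckl1 lie above, and those of Adss1, Ctps1 and Uck2 overlap.

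All 3 genes of de novo pyrimidine synthesis fell, over a wide range of sizes, where 39.4% of all genes tested fell. Cad (ENSMUSG00000013629), the multifunctional enzyme of the first steps and the regulated entry to the pathway, had 12777, 11243 and 12719.7 normalised counts in DMSO and 4596, 5020.0 and 4655 in P3FI-90. The DMSO libraries spread more than those of P3FI-90 but did not approach them, and the fall was 61.2% (log2 fold change −1.36, SE 0.051, edgeR adjusted p = 1.04e-11). Umps, which attaches the ring to PRPP and decarboxylates it to UMP, fell by 37.9%, from 5113 ± 115 to 3177 ± 25.3 normalised counts. Dhodh, the mitochondrial dehydrogenase between them, had the smallest fall of the 3. It stood at 1461 ± 98.0 normalised counts in DMSO and 1309 ± 38.1 in P3FI-90 (log2 fold change −0.16, SE 0.061, edgeR adjusted p = 0.0268). That call was lost without DMSO library 1 (adjusted p = 0.0674), DMSO library 3 (0.111) or P3FI-90 library 3 (0.0753), and the log2 fold change became 0.054 with scaling by total counts.

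Of the CTP synthases, Ctps2 fell and Ctps1 passed no threshold. Ctps2 (ENSMUSG00000031360) had 2099.8, 2052 and 2087 normalised counts in DMSO and 777, 755 and 728 in P3FI-90, a fall of 63.8% without overlap (log2 fold change −1.46, SE 0.054, edgeR adjusted p = 9.52e-12). Ctps1 (ENSMUSG00000028633), the paralog known to be needed for proliferation of lymphocytes and the more abundant one here, stood at 8151, 8457 and 8102 normalised counts in DMSO and at 7816, 8035 and 8173 in P3FI-90. Its groups overlapped, with a log2 fold change of −0.04 (SE 0.034, edgeR adjusted p = 0.289). Scaling by total counts gave 0.17 and a call for a rise (adjusted p = 3.69e-04), and upper quartile scaling gave a call for a fall (adjusted p = 0.0463), so no direction is given for Ctps1.

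In pyrimidine salvage, 2 of 4 genes rose (50%) and 1 fell (25%), or 2 fell with upper quartile scaling. Over all genes tested, 39.9% rose and 39.4% fell, so counts of so few genes set this list little apart. Uck1 (ENSMUSG00000002550), a uridine-cytidine kinase, rose 1.89-fold and more than any other of the 37 genes. Its values were 1589, 1617 and 1605 normalised counts in DMSO and 3077, 3002 and 3006 in P3FI-90 (log2 fold change 0.92, SE 0.047, edgeR adjusted p = 2.66e-10), with a tight spread in both groups. Uckl1 (ENSMUSG00000089917), a kinase-like relative, had 586, 559 and 579.7 normalised counts in DMSO and 924, 798 and 914 in P3FI-90, all above DMSO. It rose 1.53-fold (log2 fold change 0.61, SE 0.080, edgeR adjusted p = 7.33e-06). Over 11.4% of its exon length Uckl1 overlaps Uckl1os and Zfp512b in GENCODE M21, and Zfp512b itself had a log2 fold change of 0.67. For Uck1, 24.5% of the 50-base windows occur in other genes, mostly Gm4482, a symbol that no row bore.

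Uck2 (ENSMUSG00000026558), the more abundant uridine-cytidine kinase, held 8933, 8361 and 8331 normalised counts in DMSO and 8039.6, 8501 and 8070.0 in P3FI-90. The groups overlapped (log2 fold change −0.06, SE 0.038, edgeR adjusted p = 0.177). With total counts the log2 fold change was 0.16 (adjusted p = 0.00184) and with upper quartile scaling it was called lower (adjusted p = 0.0343), so Uck2 has no settled direction. Upp1, the uridine phosphorylase, fell by 35.9% from 445 ± 44.9 to 286 ± 28.4 normalised counts (log2 fold change −0.64, SE 0.12, edgeR adjusted p = 2.06e-04).

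Among the 5 deoxynucleotide enzymes, 4 fell (80%) and 1 rose (20%), against 39.4% and 39.9% of all genes tested. Dut, the dUTPase that keeps uracil out of DNA and supplies dUMP, fell by 53.3%, from 6763 ± 207 to 3156 ± 14.9 normalised counts (log2 fold change −1.10, SE 0.036, edgeR adjusted p = 2.95e-12). Dctd, the deaminase that also leads to dUMP, had a log2 fold change of −0.95 (SE 0.062). Dck, the main salvage kinase for deoxycytidine, stood at −0.50 (SE 0.051). Samhd1, which degrades deoxynucleoside triphosphates and so acts in the opposite direction to the synthetic enzymes, fell from 5791 ± 76.3 to 4139 ± 234 normalised counts (log2 fold change −0.48, SE 0.042, edgeR adjusted p = 9.27e-08). Dtymk (ENSMUSG00000026281), the thymidylate kinase, went the other way. It had 3626, 3572 and 3624 normalised counts in DMSO and 4475, 4048 and 3980.2 in P3FI-90, which did not overlap and gave a 1.16-fold rise (log2 fold change 0.21, SE 0.047, edgeR adjusted p = 9.68e-04).

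Of the 5 nucleotide kinases, 4 fell (80%) and 1 rose (20%), against 39.4% and 39.9% of all genes tested. Nme2, one of the nucleoside diphosphate kinases, fell from 16393 ± 274 to 7033 ± 311 normalised counts (log2 fold change −1.22, SE 0.037, edgeR adjusted p = 1.37e-12), and its paralog Nme1 from 9902 ± 245 to 4979 ± 353 (log2 fold change −0.99, SE 0.047, edgeR adjusted p = 1.2e-10). In GENCODE M21, 54.5% of the 50-base windows of Nme2 and 11.8% of those of Nme1 occur in other genes. They include a readthrough gene of both that had its own row (Nme1nme2), at 258 to 308 normalised counts in DMSO and at 268, 278 and 49.0 in P3FI-90. Guk1, the guanylate kinase, fell by 0.92 on the log2 scale (SE 0.062). Cmpk1, the UMP-CMP kinase, stood at 3864 ± 111 normalised counts in DMSO and 3560 ± 144 in P3FI-90 (log2 fold change −0.12, SE 0.044, edgeR adjusted p = 0.0232). Its call was lost without DMSO library 2 (adjusted p = 0.0515) or P3FI-90 library 2 (0.0943), and its log2 fold change was 0.096 with total counts.

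Ak4 (ENSMUSG00000028527), the mitochondrial adenylate kinase family member, had 1984, 2259 and 2215 normalised counts in DMSO and 2418, 2452 and 2378 in P3FI-90. The groups did not overlap and the log2 fold change was 0.17 (SE 0.056, edgeR adjusted p = 0.0135). DMSO library 1 was the lowest, and without it the value was 0.11 (adjusted p = 0.0648).

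Pairs of paralogs allow a measure that does not depend on how libraries are scaled, the ratio of both genes within a library. For Ctps1 over Ctps2 the log2 ratio was 1.96, 2.04 and 1.96 in the DMSO libraries and 3.33, 3.41 and 3.49 in the P3FI-90 libraries. That is a mean ratio of 3.96 in DMSO and 10.6 in P3FI-90, and the difference of the log2 ratios was 1.42 (SE 0.054). Adss2 over Adss1 went down from a log2 ratio of 5.60 ± 0.041 to 4.37 ± 0.23 (SD, n = 3 each), a difference of −1.23 (SE 0.13). Uck1 over Uck2 went from −2.41 ± 0.068 to −1.44 ± 0.059, a difference of 0.97 (SE 0.052). In the IMP dehydrogenases, the less abundant Impdh1 stood at a log2 ratio to Impdh2 of −2.89 ± 0.063 in DMSO and −2.26 ± 0.025 in P3FI-90, with a difference of 0.63 (SE 0.039). Nme1 over Nme2 moved from −0.73 ± 0.048 to −0.50 ± 0.044 (difference 0.23, SE 0.038), with the shared sequence given above. In these pairs the groups did not overlap, and each reached an exact two-sided permutation p of 0.1, the smallest that 3 libraries against 3 can give (adjusted p = 0.12 over the 6 pairs). Prps1 over Prps2 was the pair whose ratios overlapped, at 0.44 ± 0.046 and 0.51 ± 0.066 (difference 0.067, SE 0.047, exact permutation p = 0.2). No pair could pass a threshold of 0.05 with this number of libraries.

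**Figure D3:**
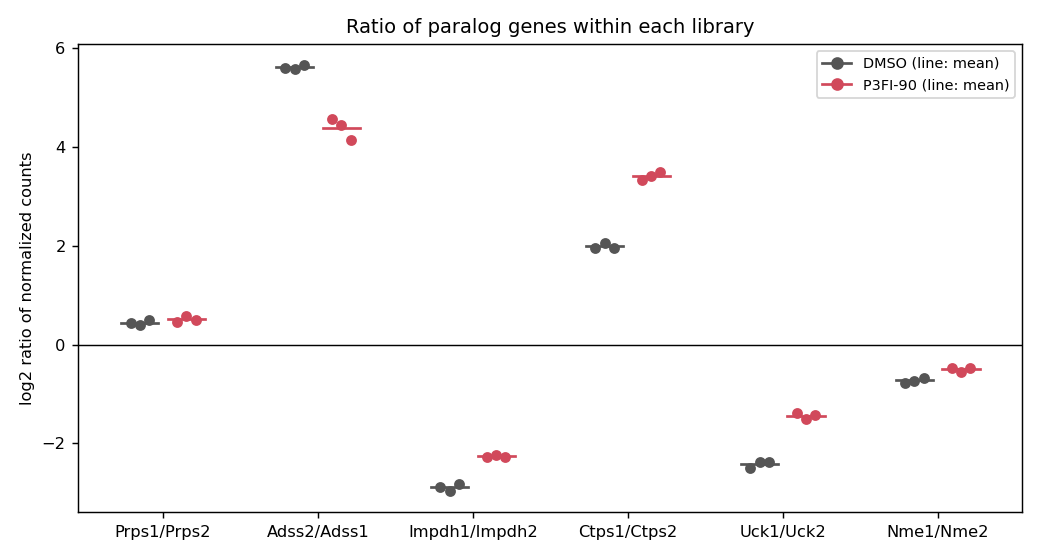
Log2 ratio of the normalised counts of 2 paralogs within each library (y axis) for 6 pairs (x axis), with 1 point per library and a line at the group mean. The Ctps1/Ctps2 points stand near 1.99 in DMSO and near 3.41 in P3FI-90, and only the Prps1/Prps2 points of the groups overlap.

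Levels can be compared between genes only per length, and here they are given as normalised counts per kilobase of the union of exons in GENCODE M21. Nme2 had 13999 ± 234 per kilobase in DMSO and 6006 ± 266 in P3FI-90 (SD, n = 3 each), with the shared sequence described above. Paics stood at 8435 ± 377 and 4223 ± 31.0, and Aprt at 7186 ± 129 and 2591 ± 65.0. Impdh2, also with shared sequence, had 5159 ± 80.0 and 2242 ± 32.0, and Hprt1 had 3540 ± 134 and 2676 ± 113. The order of such genes depends on which length is taken, since the union of exons and the longest coding transcript are 1615 and 849 bases for Aprt and 3077 and 1858 bases for Impdh2, but 1289 bases each for Hprt1, so no order is read from these levels. Low levels were those of Uckl1 at 124 ± 3.07 and Adss1 at 98.8 ± 6.16 per kilobase of exon in DMSO. Uck1 went from 583 ± 5.23 to 1101 ± 15.2 per kilobase, while the more abundant Uck2 stood at 1563 ± 62.1 and 1501 ± 47.2.

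Of 54 further genes of nucleotide metabolism, 45 could be tested, and of these 30 fell, 10 rose and 5 passed no threshold (median log2 fold change −0.69), against the background of 39.4% and 39.9% given above. The pentose phosphate pathway, which provides ribose phosphate for PRPP, had 6 of 7 genes lower. G6pdx, its entry enzyme, fell by 75.5%, from 8237 ± 266 to 2017 ± 103 normalised counts (log2 fold change −2.03, SE 0.044, edgeR adjusted p = 5.98e-14). Pgd, the second dehydrogenase, had a log2 fold change of −1.28 (SE 0.036), and the non-oxidative enzymes Tkt and Taldo1 had −1.25 (SE 0.034) and −1.08 (SE 0.051). Rpe, the epimerase, was the single gene of this list that rose, with a log2 fold change of 0.43 (SE 0.041). It was picked out after its value was seen.

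Of the 8 genes of ribonucleotide reduction and thymidylate supply, 3 were lower (37.5%), 4 higher (50%) and 1 neither. Over all genes tested, 39.4% were lower and 39.9% higher, so these counts set the list little apart. Rrm2, the S-phase subunit of ribonucleotide reductase, fell by 74.2%, from 11112 ± 292 to 2861 ± 70.6 normalised counts (log2 fold change −1.96, SE 0.037, edgeR adjusted p = 1.79e-14). Tk1, the thymidine kinase that is high in cycling cells, fell by 66.1% (log2 fold change −1.56, SE 0.036). The risen genes included Tk2, Tyms and Rrm2b, named after their values were seen, with log2 fold changes of 0.68, 0.34 and 0.29. The large subunit Rrm1 had a log2 fold change of −0.18 (SE 0.034), which became 0.036 with total counts.

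Of 10 other nucleotide kinases, 7 fell (70%) and 2 rose (20%), Nme6 and Cmpk2. Over all genes tested, 39.4% fell and 39.9% rose. Nme3 and Ak1 had log2 fold changes of −2.83 (SE 0.28) and −2.70 (SE 0.49) at low levels, Ak1 being at 55.3 ± 12.7 normalised counts in DMSO and 8.30 ± 5.54 in P3FI-90. Nme4, a mitochondrial nucleoside diphosphate kinase, fell by 70.6% and Ak5 by 60.2%. Cmpk2, a mitochondrial kinase known as an interferon-induced gene, rose from 18.4 ± 8.09 to 95.4 ± 8.33 normalised counts (log2 fold change 2.39, SE 0.32, edgeR adjusted p = 8.77e-06), and Nme6, named after its value was seen, had a log2 fold change of 0.69.

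Breakdown and cleansing genes could be tested for 17 of 22, and 11 fell (64.7%) and 3 rose (17.6%). Over all genes tested, 39.4% fell and 39.9% rose. The risen genes, named after their values were seen, were Nt5m, Xdh and Ampd3, with log2 fold changes of 0.96, 0.49 and 0.38. Ada, which deaminates adenosine, had a log2 fold change of −1.18 (SE 0.11), and the pool-cleansing hydrolases Nudt1 and Dctpp1 had −1.17 (SE 0.10) and −1.15 (SE 0.064). Nt5e, the ecto-nucleotidase CD73, fell by 49.9%, from 4637 ± 252 to 2323 ± 25.0 normalised counts. The equilibrative nucleoside carriers Slc29a1, Slc29a2 and Slc29a3 were the 3 of 7 carriers that could be tested, and all fell. Slc29a1 had the largest fall of these, by 57.5% (log2 fold change −1.24, SE 0.040, edgeR adjusted p = 2.6e-12).

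**Figure D4:**
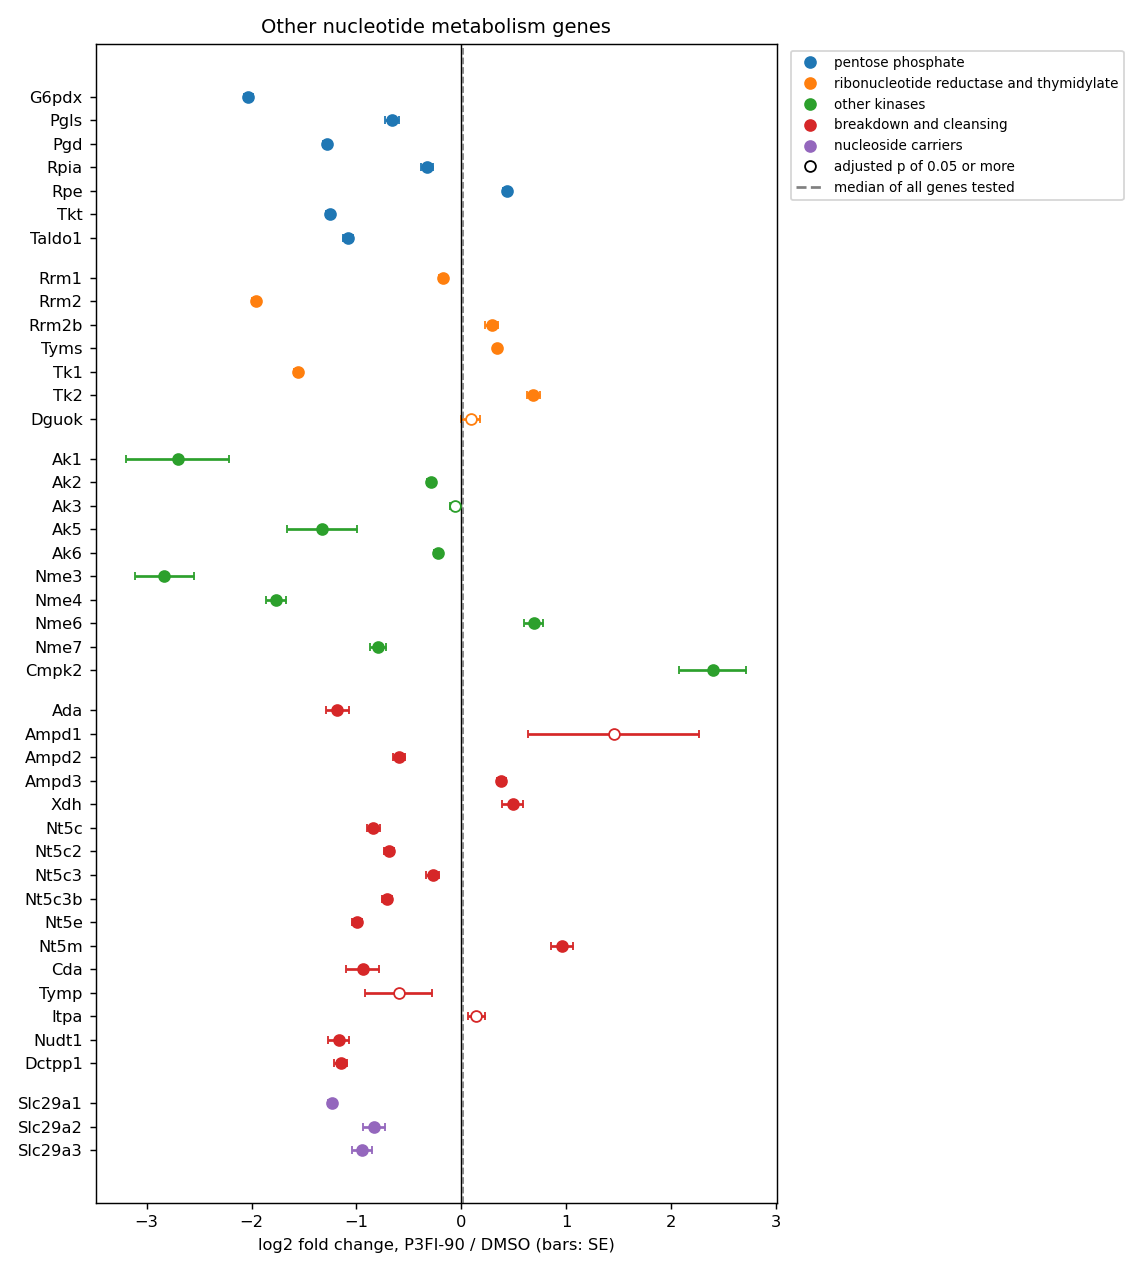
Log2 fold change of P3FI-90 over DMSO (x axis, bars for the standard error) for further nucleotide metabolism genes that could be tested and are reported here (y axis, coloured by list), with open points for genes that passed no threshold and a dashed line at the median of all genes tested. G6pdx stands at −2.03, Rrm2 at −1.96 and Cmpk2 at 2.39.

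The transcription factor Myc, known to drive many of these enzymes, had 9946 ± 415 normalised counts in DMSO and 7270.4 ± 388 in P3FI-90 (log2 fold change −0.45, SE 0.044, edgeR adjusted p = 2.85e-07). Its partner Max stood at 0.38 and its relative Mycl at 0.66, both called higher, and Mycn was at 0 counts in every library. Atf4, known to raise several one-carbon and purine genes under amino acid stress, rose 1.47-fold (log2 fold change 0.56, SE 0.040, edgeR adjusted p = 1.06e-08). Whether either factor had a part in the values of the 37 genes was not tested. Kdm3b, the gene of the compound's named target, had 2851 ± 67.4 normalised counts in DMSO and 3109 ± 55.7 in P3FI-90 (log2 fold change 0.13, edgeR adjusted p = 0.0169), a call lost with upper quartile scaling (adjusted p = 0.0801) and without DMSO library 1 (0.0627), P3FI-90 library 2 (0.0588) or P3FI-90 library 3 (0.0518).

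The scaling of libraries set the position of every value by a common amount. TMM factors were 0.927 to 0.930 in DMSO and 1.08 in P3FI-90, and scaling by total counts alone moved the median of all genes by 0.21 on the log2 scale. Over all genes it gave 3641 falls and 6179 rises, in place of 4841 and 4908. Of the 37 genes, 26 then fell and 6 rose, and their median log2 fold change was −0.43. Relative to the all-gene median, 33 of the 37 genes lay below under every filter and tool tried and without any single library. A change of scaling moves the genes and that median together, so the scalings could not test this count.

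**Figure D5:**
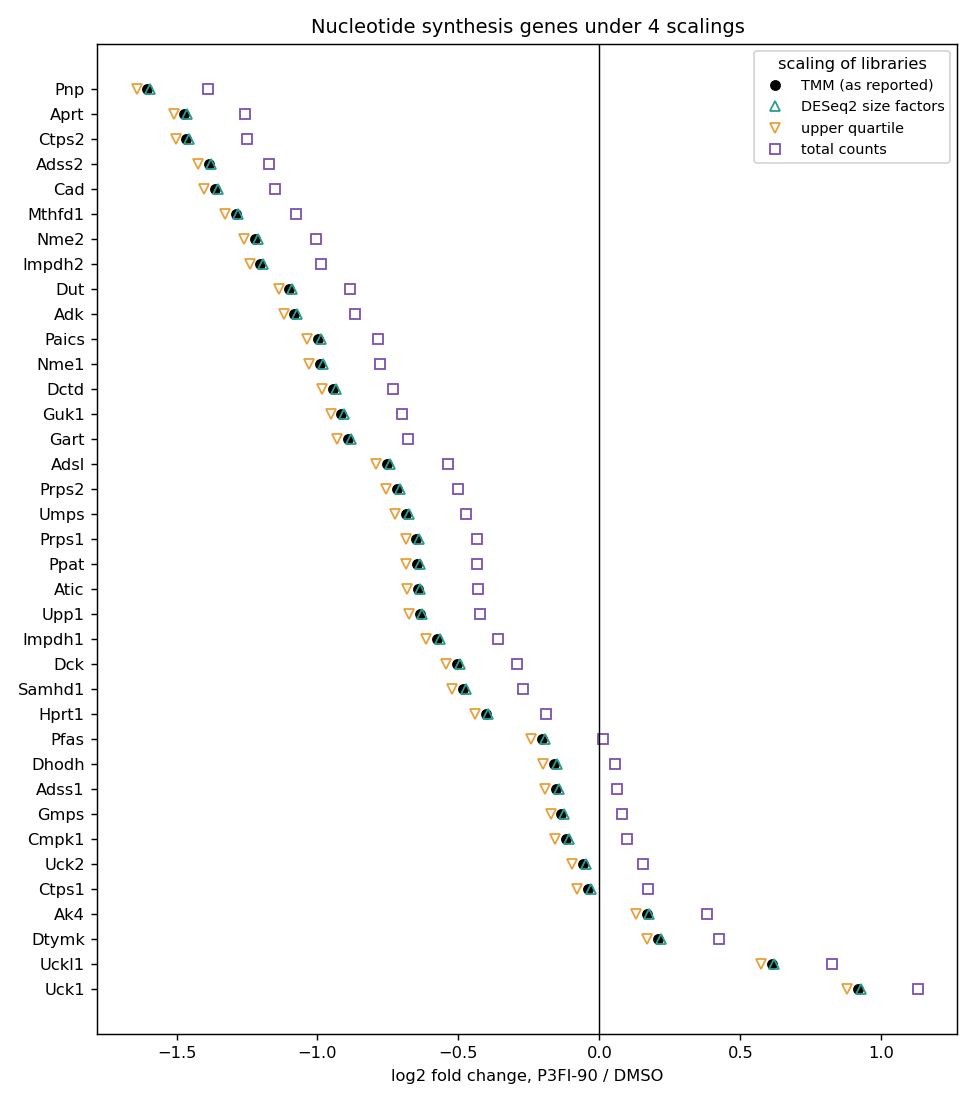
Log2 fold change of P3FI-90 over DMSO (x axis) for the 37 genes (y axis) with libraries scaled by TMM, DESeq2 size factors, upper quartile or total counts. The total-count points lie further right, and Pfas, Dhodh, Adss1, Gmps, Cmpk1, Uck2 and Ctps1 cross 0.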

How the data were processed

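RNA of 4T1 cells treated with DMSO or 10 µM P3FI-90 for 24 h was sequenced by the authors on an Illumina NovaSeq platform, with 3 libraries per group. The authors deposited raw read counts per gene. Their processing notes name CASAVA, HISAT2, StringTie and GRCm39, while the counting tool, annotation and strandedness are not given in the sources used here. From the 22401 rows, 285 assembled transcripts without a gene name were left out (0.483% to 0.556% of counts per library), leaving 22116 named genes.

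Counts were filtered with filterByExpr (12288 genes kept), scaled by TMM and tested with the quasi-likelihood test of edgeR 4.0.16 (R 4.3.3) across all 6 libraries without a covariate, with Benjamini-Hochberg adjustment over all genes tested and a threshold of 0.05. The functions were tested first on simulated data in which 200 of 22116 genes were changed. The test found 199 of these, and 5.24% of its calls were false. In the real data 79.3% of genes tested were called, so that simulation does not test the scaling. Paralog ratios were compared with exact two-sided permutation tests. Alternatives were other scalings, filters, DESeq2 1.42.0, limma 3.58.1, a replicate block and leaving out each library. Libraries of 31327094 to 37395732 counts gave a biological coefficient of variation of 0.0648.

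Replicate numbers did not pair libraries: deviations of equal-numbered libraries correlated at −0.0150, 0.0168 and 0.0102. No libraries of a group were copies of each other. Exon lengths, overlaps and shared 50-base windows came from GENCODE M21 (GRCm38), and promoters from RefSeq GRCm38.p6, both matched by symbol or gene identifier, so they are not on the build of the counts. Protein sequences were not used here.

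Every member of the list is named. Values per library are given for entry or rate-limiting enzymes, the 5 largest falls, the rises (only 4 genes rose) and genes that passed no threshold. Of the further genes, those with the 2 smallest p-values per list or a log2 fold change beyond 1 could be named, and the values of 2 genes are not reported here. The 37 genes, the role groups and the other lists were chosen with earlier results of these data known.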

Additional observations from a re-analysis of the deposited data

How the results depend on the processing

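The counts of higher and lower nucleotide synthesis genes kept within 1.5 times of 30 and 4 under every scaling, filter, tool and left-out library, with 26 to 32 lower and 3 to 6 higher. Their median log2 fold change was −0.43 with total counts and −0.69 with upper quartile scaling, and lay between −0.69 and −0.65 when each library was left out. With total counts the direction turned for Pfas (0.011), Adss1 (0.062), Gmps (0.079), Dhodh (0.054), Ctps1 (0.17), Uck2 (0.16), Cmpk1 (0.096), Rrm1 (0.036) and Ak3 (0.15), which shows the common shift of that scaling. The other log2 fold changes kept their direction under every alternative that gave a value. They covered the 37 genes, the tested further genes, the transcription factors and Kdm3b. Ak1 and Ampd1 had no value with the filter of at least 10 counts in every library. All 6 paralog differences kept their direction with an added count of 10 and without any single library. Scaling cannot change a ratio within a library, and a replicate block leaves the mean difference as it was. The paralog ratios were not run with other filters or tools. The replicate numbers did not pair the libraries, and a fit with the replicate number as a block gave 30 lower, 4 higher and a median of −0.65. Paralog ratios compared within replicate numbers, as such a block, gave an exact permutation p of 0.25 for each pair, the smallest that 3 pairs allow. With 3 libraries per group, the calls of the small changes in Dhodh, Cmpk1, Ak4 and Kdm3b were each lost without at least 1 of the libraries.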
